A study of Arabidopsis thaliana with 32 samples.

Results

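The roots of *Arabidopsis* seedlings at the end of a 3 h heat treatment were compared with roots that had been through the same treatment and then recovered for 21 h. By the sample titles, 2 arrays held roots after 3 h at 38 °C and 2 arrays held roots after 3 h at 38 °C and 21 h at 25 °C, 4 of the 32 arrays of the series. All 22746 probe sets for genes entered, of 22810 on the array, and 16782 passed a filter on low signal. The question was how far the state of heated roots differed from that of roots that had been through the same heat a day earlier.

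The plants of every group were of the Col-0 accession, grown on Murashige and Skoog medium at 24 °C with 16 h days. Heat began on day 16, at 3 h of light. Both root groups had therefore been heated for 3 h, and no unheated plants were among the samples. Roots at 21 h of recovery were harvested 24 h after the heat began, at the clock hour of its start, whereas heated roots were harvested 3 h after it began. Heat, plant age and clock hour thus cannot be told apart in this comparison. The labels do not say whether the 2 arrays of a group came from separate cultures, so the p-values rest on a spread that may be purely technical, and the number of arrays limits the precision.

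Plants answer heat by making molecular chaperones, which bind unfolding proteins and help them refold. Small heat shock proteins hold unfolded proteins, HSP70 with its J-domain partners refolds them, and HSP90 works on them with a set of co-chaperones. Separate members of these families serve the cytosol, the endoplasmic reticulum, mitochondria, plastids and peroxisomes. Roots grow by dividing and expanding cells behind the tip, take up nutrients and store defence compounds, so genes of the cell cycle, of wall loosening, of transport and of conjugation enzymes are read beside the chaperones.

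In roots after 3 h of heat 1135 probe sets rose (6.76% of those tested) and 1715 fell (10.2%) relative to 21 h of recovery. A call needed an adjusted p-value under 0.05 together with a difference of at least 1 on the scale log2(signal + 10.7), which understates the change of genes with low signal. The increases were the larger in size. Of the probe sets that rose, 137 did so by at least 3 on the log2 scale and 58 by at least 4, against 20 and 2 of those that fell. Their medians were 1.53 and −1.30, and the extremes, both of probe sets without a gene name here, were 8.02 and −4.59. All 2850 called probe sets showed no overlap between the arrays of the groups, which also held for 80.5% of the probe sets tested, so separation of the arrays alone says little here.

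Risen probe sets held 23.6% and 23.8% of the total signal on the 2 arrays of heated roots, and 5.87% and 5.55% on those of recovered roots. Fallen probe sets went from 12.8% and 13.5% of the signal in recovered roots to 4.12% and 4.08% in heated roots. The MAS5 signal is scaled to a common trimmed mean on each array, and the median over all probe sets lay at −0.15. Scaled to a common 75th percentile the median was −0.05, and 1344 rose and 1324 fell. The share of increases among calls moved from 39.8% to 50.4% with it. With an added constant 4 times as large, 789 rose and 749 fell, and the share of increases was 51.3%. Replicate arrays correlated at 0.99 in both groups (log2 signal), with a median absolute difference of 0.13 for heated and 0.12 for recovered roots.

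**Figure D1:**
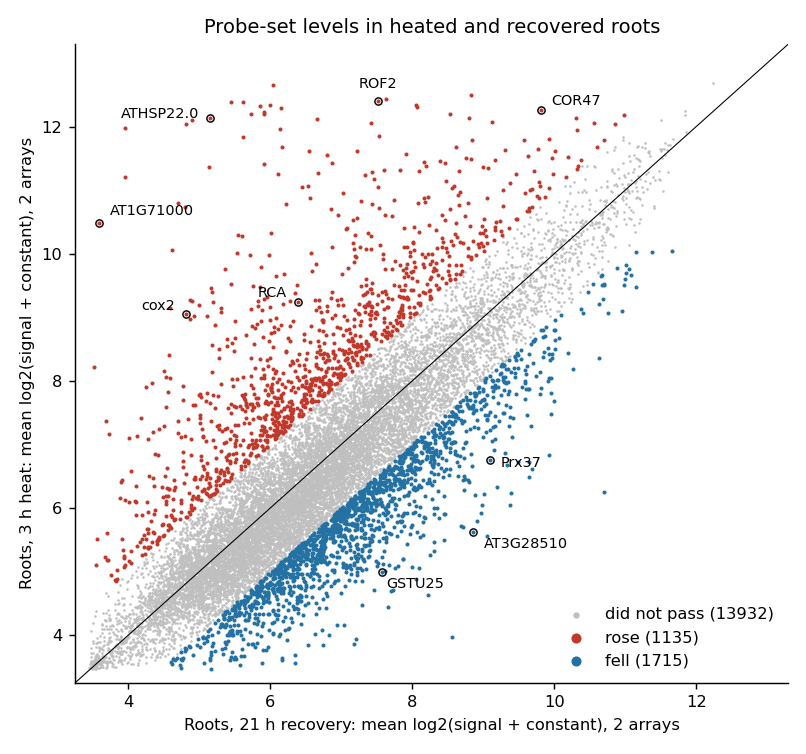
Mean log2(signal + 10.7) of 16782 probe sets in roots at 21 h of recovery (horizontal) and after 3 h of heat (vertical), 2 arrays each. Red points rose (1135), blue points fell (1715) and grey points did not pass; the diagonal marks equal levels, and the named genes are described in the text.

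Small heat shock proteins led the increases. Of 9 measured genes 8 rose and 0 fell, with a median of 6.15 beside −0.15 over all probe sets. Of all probe sets 6.76% rose and 10.2% fell. ATHSP22.0, the member of the endoplasmic reticulum, read 4578 and 4364 on the 2 arrays of heated roots against 28.3 and 21.6 in recovered roots, a log2 difference of 6.98 ± 0.23 (SE; adjusted p = 7.58e-18). The cytosolic class I gene HSP17.6C read 5259 and 5138 against 58.8 and 47.9 (6.35 ± 0.31), and its relative HSP17.6B 5122 and 4946 against 74.2 and 48.7 (6.15 ± 0.36). All arrays of heated roots lay far above those of recovered roots for these genes. The cytosolic pair and ATHSP22.0 came from low levels in recovered roots to some of the highest signals of the array.

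The other members that rose did so by 4.53 to 6.33. The mitochondrial genes HSP26.5 and HSP23.5 read 4846 and 4764 against 55.0 and 44.1 (6.33 ± 0.27), and 2539 and 2922 against 46.5 and 53.3 (5.50 ± 0.25). HSP15.7, which is peroxisomal, read 3336 and 3209 against 76.9 and 48.5 (5.51 ± 0.32). HSP17.4-CIII, of the nuclear class III, read 3621 and 3707 against 34.003 and 43.6 (6.22 ± 0.27). HSP18.5 rose by 4.53 ± 0.16. The 1 exception among the 9 was HSP15.4, an atypical member of the family, at 19.98 and 20.98 in heated roots and 23.4 and 29.1 in recovered roots. HSP18.5 and HSP15.4 were picked out after their values were seen.

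The few named HSP70, chaperonin and J-domain genes changed unevenly. Of the HSP70 genes, HSC70-3, a cytosolic HSP70, read 2506 and 2538 against 223 and 307 (3.22 ± 0.19), and Hsp70-2 748 and 726 against 150 and 174 (2.12 ± 0.26). Only 2 genes of HSP70, 5 of J-domain proteins and 4 of the HSP90, HSP100 and HSP60 families were named here, too few to stand for the families. Of the last 4, CLPB2 was removed by the filter, and of the other 3 genes 1 rose. This was Cpn60beta2, a subunit of the plastid chaperonin, at 3286 and 3226 against 357 and 411 (3.05 ± 0.11), while its paralogue Cpn60beta3 was at 0.55 ± 0.12 and did not pass. Of 5 J-domain genes 1 rose, beside 6.76% of all probe sets. It was AT1G71000, which read 1384 and 1470 in heated roots and 2.19 and 0.503 in recovered roots (6.90 ± 0.19, adjusted p = 7.12e-19). Its level at 21 h of recovery was at the bottom of the array's range, so the size of the difference rests on the added constant. ATERDJ3B, which partners HSP70 in the endoplasmic reticulum, was already at 615 and 654 in recovered roots and was at 1157 and 1142 in heated roots (0.85 ± 0.08, not passed).

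Genes of a list of co-chaperones and thermotolerance proteins rose with the chaperones, 8 of 12 measured, with 0 fallen and a median of 2.65. Of all probe sets 6.76% rose and 10.2% fell. HSA32, needed to keep acquired thermotolerance, read 4604 and 4319 against 96.6 and 83.9 (5.47 ± 0.24). ROF2, a peptidyl-prolyl isomerase that binds HSP90, read 5497 and 5349 against 180 and 164 (4.90 ± 0.22). Fes1A, which binds HSP70, read 3054 and 2912 against 96.5 and 104 (4.75 ± 0.22). These were among the 15 largest increases of named genes with separate arrays. The Hikeshi-like gene AT1G66080, whose human counterpart carries HSP70 into the nucleus, read 623 and 563 against 21.0 and 31.7 (4.04 ± 0.22).

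The organizing proteins that join HSP70 to HSP90 split into 3 behaviours. Hop3 read 3677 and 3683 against 172 and 175 (4.32 ± 0.20), Hop2 rose by 1.86 ± 0.16, and Hop1 was lower on both heated arrays at 146 and 144 against 202 and 198 without passing (−0.44 ± 0.12). SGT1A, a co-chaperone of HSP90, rose by 3.12 ± 0.21, and BOB1, a NudC-domain protein of thermotolerance, by 2.18 ± 0.12. Hop2, Hop1, SGT1A and BOB1 were chosen for naming after their values were seen.

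**Figure D2:**
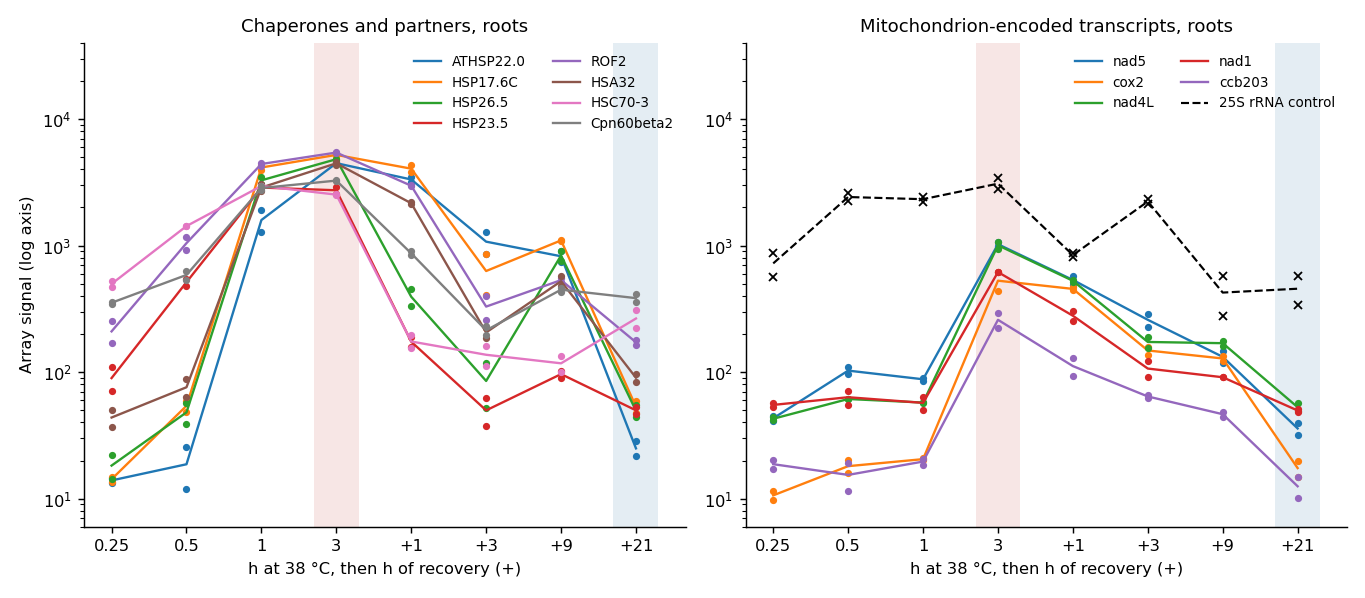
Signal (log axis) of chaperone genes (left) and mitochondrion-encoded transcripts (right) in roots at 4 times of heat and 4 of recovery, with 2 arrays as points and their mean as a line; the bands mark the 2 times compared. Chaperone transcripts were high from 1 h of heat, mitochondrion-encoded ones at 3 h but not at 1 h, and the 25S ribosomal RNA control (dashed, crosses) was high from 0.5 h of heat.

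Several of these genes were near their 3 h level after 1 h of heat. HSP17.6C had a mean of 4133 at 1 h, 5198 at 3 h, 4045 at 1 h of recovery and 1097 at 9 h. HSC70-3 had its highest mean at 1 h (2954) and was down to 175 at 1 h of recovery, below its level at 21 h. AT1G71000 was still rising, from 478 at 1 h to 1427 at 3 h. Across all 1135 risen probe sets the median level at 1 h of heat lay 57.3% of the way from the 21 h to the 3 h level, and 931 had their highest mean at 3 h. This last count is fixed in part by the way the probe sets were called.

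Strong increases also came from loci with no name in the annotation used. AT5G07330 read 1732 and 1807 in heated roots against 17.37 and 13.5 (6.09 ± 0.23), AT1G72660 1672 and 1716 against 18.48 and 16.1 (5.93 ± 0.17), and AT5G10695 3266 and 3020 against 90.8 and 75.01 (5.08 ± 0.21). AT1G26800 (1266 and 1206 against 48.9 and 28.7, 4.68 ± 0.17) was similar. Of these 4, AT5G07330 had the lowest share of its 3 h level at 1 h, with a mean of 148 at 1 h of heat and 1769 at 3 h. Their roles are not given here.

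Genes that act on misfolded proteins of the endoplasmic reticulum rose in part, 4 of 9 measured with 0 fallen and a median of 0.57. Over all probe sets 6.76% rose and 10.2% fell. BZIP28, a membrane-bound factor that moves to the nucleus in the unfolded protein response, read 937 and 930 against 205 and 207 (2.12 ± 0.11). The derlins DER2.1 and DER1, which help draw misfolded proteins out of the compartment, read 1140 and 1175 against 345 and 325 (1.76 ± 0.10) and 648 and 625 against 217 and 212 (1.52 ± 0.10). BZIP17, a relative of BZIP28, rose by 1.17 ± 0.24. BZIP60, whose RNA is spliced by IRE1 in the same response, was at 271 and 298 against 176 and 201 and did not pass (0.57 ± 0.14).

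Among 11 autophagy genes 3 rose and 0 fell (median 0.25), beside 6.76% and 10.2% of all probe sets. The 3 were ATG8 genes, which coat the forming autophagosome. ATG8H read 712 and 709 against 223 and 207 (1.68 ± 0.13). APG8A was high in both states, at 1414 and 1566 against 735 and 675 (1.07 ± 0.14). It was no longer called after quantile normalization (0.83) or without heated array 2 (0.996). Against 9 h of recovery neither ATG8H (0.88) nor APG8A (0.78) was called. The single measured proteasome gene, RPN12a, read 493 and 515 against 641 and 653 and did not pass (−0.35).

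Mitochondrion-encoded transcripts were the second large group to rise. All 15 measured genes of the mitochondrial genome passed upwards, with a median of 3.14, and so did 21 of their 22 probe sets. Of all probe sets 6.76% rose. The subunits of respiratory complex I encoded by nad5 and nad4L read 990 and 1057 against 32.1 and 39.7 (4.48 ± 0.13), and 938 and 1070 against 49.0 and 56.7 (3.996 ± 0.13). The gene cox2, for a subunit of cytochrome c oxidase, read 441 and 614 against 14.9 and 19.97 (4.24 ± 0.18). For nad1 the brightest of 7 probe sets read 615 and 618 against 48.1 and 51.4 (3.38 ± 0.14), and for ccb203, a gene of cytochrome c maturation, the values were 223 and 295 against 10.1 and 14.96 (3.53 ± 0.20). Arrays of the 2 groups were far apart for each of these 5 genes.

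The rise came late in the heat. The median signal over the 22 probe sets was 47.2 and 51.1 on the arrays of 1 h of heat, 516 and 558 at 3 h, 254 and 276 at 1 h of recovery and 36.1 and 38.0 at 21 h. A control probe set for 25S ribosomal RNA, which has no poly(A) tail, read 3385 and 2775 in heated roots and 339 and 572 at 21 h of recovery. It was already at 2214 and 2429 at 1 h of heat, when the mitochondrial probe sets were low, and at 2134 and 2320 at 3 h of recovery. The 3′ to 5′ signal ratio of actin was 21.9 and 16.9 in heated roots, 20 and 20.75 at 1 h of heat and 11.9 and 13.2 in recovered roots, while that of GAPDH was 1.25 and 1.16 against 1.46 and 1.36. The part of RNA quality and of priming in this result was not tested.

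Chromosome 2 of Col-0 carries a large insertion of mitochondrial DNA, so nuclear and mitochondrial copies of a sequence can share probes. Between the loci AT2G07660 and AT2G07790, a stretch chosen after values were seen, 23 probe sets with 1 named gene were kept, 19 rose and 0 fell, with a median of 2.47. AT2G07777 read 595 and 607 against 17.9 and 20.04 (4.36 ± 0.19), and AT2G07722 read 1471 and 1476 against 119 and 149 (3.37 ± 0.14). Of the 5 kept probe sets with numbers up to 760 lower or 810 higher 0 rose. In this stretch 15 of the 23 probe sets are of the kind that matches several sequences, and these arrays cannot tell which genome the RNA came from.

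Plastid-encoded transcripts rose less and in part. Of 69 genes 21 rose and 0 fell, with a median of 0.56, beside 6.76% and 10.2% of all probe sets. The highest differences were those of accD, a subunit of acetyl-CoA carboxylase, at 234 and 173 against 47.3 and 44.9 (1.90 ± 0.18), and of the photosystem I gene psaI at 271 and 205 against 67.3 and 55.2 (1.78 ± 0.19). With them rose psaJ (1.74 ± 0.16), rpl16, for a ribosomal protein (1.64 ± 0.19), and psbH (1.602 ± 0.19). Against 0.25 h of heat none of these genes was called. Their differences were then 0.95 for accD, 0.65 for psaI, 0.88 for psaJ, 0.82 for rpl16 and 0.77 for psbH. Unlike the mitochondrial group, the plastid group had a median signal in roots that was highest at 0.5 h of heat (271 and 254), with 222 and 231 at 3 h and 113 and 110 at 21 h of recovery.

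Of 13 nuclear photosynthesis genes 2 rose and 0 fell (median 0.01), beside 6.76% and 10.2% of all probe sets. RCA, the activase of Rubisco, read 568 and 617 in heated roots and 83.3 and 64.1 in recovered roots (2.85 ± 0.13, adjusted p = 3.26e-15). LHCB4.2, for the CP29 antenna protein, read 187 and 272 against 63.9 and 28.4 (2.13 ± 0.20), while its relative LHCB4.1 was at 244 and 278 against 195 and 137 (0.64 ± 0.14, not passed). Shoots carried these 3 at 4347 to 6000 on each array of both times. The summed signal of green tissue markers, of which 4 of 28 listed were measured and which include all 3, was 1027 and 1188 in heated roots and 365 and 254 in recovered roots, against 14970 to 17330 in shoots. The remaining marker, LHCB4.3, was at 27.6 and 20.5 in heated roots against 22.6 and 24.7 in recovered roots. Of the root markers 4 of 32 listed were measured, and their sum was 2872 and 2818 against 3602 and 3427, and 328 to 926 in shoots. PYK10 made up most of that sum, at 2506 and 2491 against 3183 and 3031, and PRX72 was at 211 and 193 against 330 and 306. EXPA18 was at 50.2 and 47.5 against 42.3 and 53.7, and EXPA7 was higher in heated roots. The part of shoot tissue among the roots was not tested, and fewer cells of a type cannot be told apart from less RNA per cell.

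Single genes of other lists rose, where 6.76% of all probe sets rose and 10.2% fell. In lists this small the counts say little beyond the genes named. COR47, a dehydrin that protects cells in cold and drought, reached 5008 and 4783 from 1037 and 759 (2.45 ± 0.12), among 10 genes of abscisic acid and dehydration of which 2 rose and 1 fell. PDF1.4, a defensin, read 293 and 338 against 55.1 and 40.6 (2.49 ± 0.30), the 1 increase among 7 jasmonate-linked genes. CML23, a calmodulin-like calcium sensor, read 167 and 210 against 25.9 and 41.6 (2.18 ± 0.17), the 1 increase among 6. The U-box ubiquitin ligases PUB26 and PUB25, the 2 that rose of 8, read 78.4 and 81.03 against 12.3 and 12.2 (1.98 ± 0.21), and 64.6 and 57.8 against 7.94 and 16.4 (1.68 ± 0.21).

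Of 30 genes of respiration and amino acid catabolism 1 rose and 2 fell, not far from the shares over all probe sets (6.76% and 10.2%). CYTC-2, for the electron carrier cytochrome c, read 853 and 896 against 245 and 260 (1.75 ± 0.18). The decreases were IDH-VI, a subunit of isocitrate dehydrogenase (−1.31 ± 0.11), and ALDH6B2, an aldehyde dehydrogenase (−1.299 ± 0.10). PDC2, a pyruvate decarboxylase of ethanol fermentation, read 346 and 382 against 115 and 74.4 (1.86 ± 0.20). It was higher still at 9 h of recovery, with a mean of 521, so that against 9 h of recovery its difference was −0.50.

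**Figure D3:**
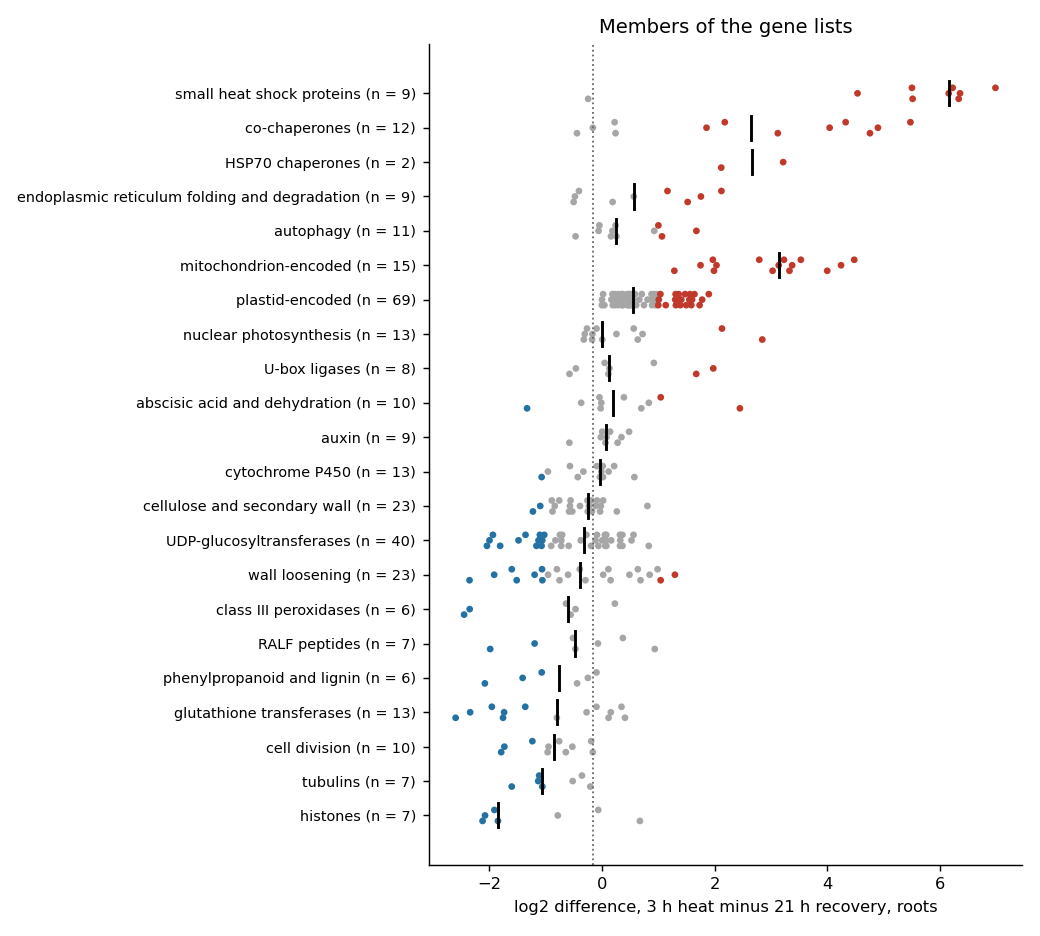
Log2 difference of each measured member of 22 gene lists in roots, 3 h heat minus 21 h recovery, 1 probe set per gene (red rose, blue fell, grey did not pass). Black bars are list medians and the dotted line is the median over all probe sets (−0.15); chaperone and mitochondrion-encoded lists lie to the right, histones, tubulins and glutathione transferases to the left.

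The largest decreases of named genes were of loci without a described role here. AT3G28510 read 37.5 and 39.5 in heated roots against 437 and 467 (−3.23 ± 0.13, adjusted p = 1.34e-16), and AT4G24780 79.4 and 97.0 against 739 and 898 (−3.07 ± 0.17). AT4G01390 read 4.06 and 21.4 against 162 and 227 (−3.22 ± 0.37), its heated arrays differing from each other by more than those of the others. AT1G06000 read 19.7 and 25.4 against 264 and 261 (−3.04 ± 0.19). In each of them recovered roots were high on both arrays.

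The next in order were AT3G02640 (−3.02), AT5G66985 (−3.01), AT5G57785 (−2.93), AT3G12870 (−2.90), AT5G46230 (−2.87), AT4G15830 (−2.82), AT5G62210 (−2.81), AT4G30650 (−2.78), AT5G22555 (−2.75), AT5G44400 (−2.70) and AT5G41280 (−2.66). Their standard errors ran from 0.16 to 0.33. AT5G66985, the brightest of the 11 in recovered roots, read 40.5 and 42.5 in heated roots against 417 and 401.

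Genes that loosen the cell wall fell in part. Of 23 measured expansin and xyloglucan enzyme genes 7 fell and 2 rose, with a median of −0.39. Over all probe sets 10.2% fell and 6.76% rose. The expansin EXPA4 read 54.0 and 52.9 in heated roots against 291 and 340 (−2.34 ± 0.20), EXPB2 42.1 and 28.5 against 119 and 213 (−1.91 ± 0.20), and the xyloglucan enzyme gene XTH20 11.1 and 19.0 against 59.3 and 73.6 (−1.59 ± 0.16). EXPA8 fell by 1.51 ± 0.17 from low levels, 22.4 and 23.3 at 21 h of recovery. Both increases were near the limit of the call. EXLA1, an expansin-like gene (228 and 210 against 83.4 and 81.7, 1.298 ± 0.46), was no longer called without either array of either group (1.24 to 1.35). EXPA7, an expansin of root hairs (105 and 87.0 against 46.7 and 35.6, 1.04 ± 0.22), was no longer called without heated array 1 (0.92) or recovered array 2 (0.89).

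Of 8 cellulases of family GH9, which trim cellulose, 1 fell, near the 10.2% of all probe sets. This was GH9C2, at 52.7 and 46.5 against 280 and 336 (−2.40 ± 0.15). Of 23 genes of cellulose synthesis and secondary wall, 2 fell and 0 rose (median −0.25), again near that share.

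Class III peroxidases, which cross-link or loosen the wall with hydrogen peroxide, had 2 decreases among 6 genes and 0 increases (median −0.59). Over all probe sets 10.2% fell and 6.76% rose. PRX25 read 81.4 and 55.6 in heated roots against 316 and 538 (−2.44 ± 0.20), and Prx37 95.9 and 99.6 against 565 and 512 (−2.34 ± 0.23). Prx37 was lowest at 3 h of heat, with a mean of 346 at 1 h and of 170 at 1 h of recovery. Among 7 RALF genes, for small peptides that slow cell growth, 2 fell. RALFL34, a peptide of lateral root initiation, read 52.0 and 45.2 against 218 and 227 (−1.98 ± 0.13), and RALFL24 fell by 1.19 ± 0.13.

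Conjugation enzymes fell in part in heated roots. Of 13 glutathione transferases, which attach glutathione to toxic molecules, 6 fell and 0 rose, with a median of −0.79. Over all probe sets 10.2% fell and 6.76% rose. GSTU25 read 19.7 and 22.5 against 170 and 191 (−2.59 ± 0.19), GSTU20 16.6 and 19.99 against 112 and 162 (−2.33 ± 0.22), and GSTU22 238 and 210 against 728 and 808 (−1.73 ± 0.15). The tau class genes GSTU26 (−1.95) and GSTU27 (−1.75) fell with them. GSTU25 stayed low at 1 h of recovery, with a mean of 19.7, and was at 60.7 at 3 h of recovery.

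Of 40 UDP-glucosyltransferases, which attach sugars to hormones and secondary compounds, 12 fell and 0 rose (median −0.32). The shares over all probe sets were 10.2% and 6.76%. UGT78D1, which attaches rhamnose to flavonols, read 1.29 and 0.475 in heated roots and 35.4 and 38.3 in recovered roots (−2.03 ± 0.19), a low level in both states. UGT85A2 read 50.4 and 29.2 against 235 and 145 (−1.99 ± 0.20), UGT73D1 23.6 and 29.3 against 133 and 128 (−1.93 ± 0.22) and UGT73B4 32.7 and 38.0 against 142 and 157 (−1.80 ± 0.13). UGT71C3 fell by 1.47 ± 0.22.

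Phenylpropanoid genes had 3 decreases among 6 measured, with a median of −0.75. CHIL, a chalcone isomerase-like protein of flavonoid synthesis, read 18.4 and 30.1 against 115 and 156 (−2.07 ± 0.30), and the chalcone isomerase CHI 171 and 243 against 490 and 629 (−1.40 ± 0.29). Of 3 measured genes of glucosinolate synthesis 1 fell, BCAT4, which starts the lengthening of methionine, at 190 and 270 against 782 and 1004 (−1.92 ± 0.19). The other named enzyme, UGT74B1, was at 193 and 180 against 329 and 386 and did not pass (−0.90 ± 0.13). Both glucosinolate transporters fell, GTR2 from 339 and 341 to 66.2 and 59.3 (−2.26 ± 0.13) and GTR1 from 101.45 and 113 to 42.1 and 29.02 (−1.36 ± 0.14). These 2 were the only decreases among 9 genes for transport of nitrogen compounds, phosphate and sulfate, and 0 of these 9 rose. Of all probe sets 10.2% fell and 6.76% rose.

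Some decreases came from further lists. TPS-CIN, a terpene synthase that makes cineole and that the search for trehalose and raffinose genes had picked up by its symbol, read 31.1 and 36.4 against 213 and 166 (−2.17 ± 0.15). NAI1, a transcription factor for the bodies of the endoplasmic reticulum that store a beta-glucosidase, fell by 1.39 ± 0.20. It was 1 of 2 decreases among 17 genes of that list, near the 10.2% of all probe sets that fell. Of 14 commonly used reference genes 1 fell, also near that share, and 0 rose. The decrease was that of the ubiquitin-conjugating enzyme gene UBC20, at 90.9 and 80.9 against 236 and 231 (−1.34 ± 0.16).

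Chromatin and cell division genes fell in part in heated roots. Of 7 measured histone genes 4 fell and 0 rose, with a median of −1.84. Over all probe sets 10.2% fell and 6.76% rose. The H2B genes HTB1, HTB2 and HTB11, whose product packs DNA, read 55.5 and 45.5 against 234 and 273 (−2.11 ± 0.13), 43.0 and 46.8 against 212 and 233 (−2.07 ± 0.15), and 98.8 and 91.7 against 365 and 406 (−1.90 ± 0.10). The linker histone HIS1-3 fell by 1.84 ± 0.20. HTB4, a further H2B gene, was at 640 and 741 in heated roots and 677.9 and 762 in recovered roots, with overlapping arrays, and HON4 was at 0.68 ± 0.14 and did not pass. H2B genes are close in sequence, and these probe sets may share signal.

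Of 10 measured cell division genes 3 fell and 0 rose (median −0.85), beside 10.2% and 6.76% of all probe sets. BUB3.1 and BUBR1, which hold the spindle checkpoint, read 18.4 and 9.54 against 69.4 and 76.4 (−1.78 ± 0.18), and 2.497 and 2.61 against 33.3 and 33.1 (−1.72 ± 0.23). HBT, a subunit of the anaphase-promoting complex, read 34.97 and 41.1 against 104 and 102 (−1.23 ± 0.12). With the larger constant BUBR1 (−0.74) and HBT (−0.85) were no longer called, which left BUB3.1 as the 1 decrease among the 10. Tubulin genes, for microtubules, fell in 4 of 7 cases with 0 increases (median −1.05), among them TUB7 at 146 and 142 against 476 and 436 (−1.59 ± 0.10) and TUB9 at 198 and 214 against 463 and 461 (−1.12 ± 0.10). The arrays of the 2 groups did not overlap for any of the decreases named in this paragraph. This held for all 2850 called probe sets and for 80.5% of those tested, so it says little here.

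**Figure D4:**
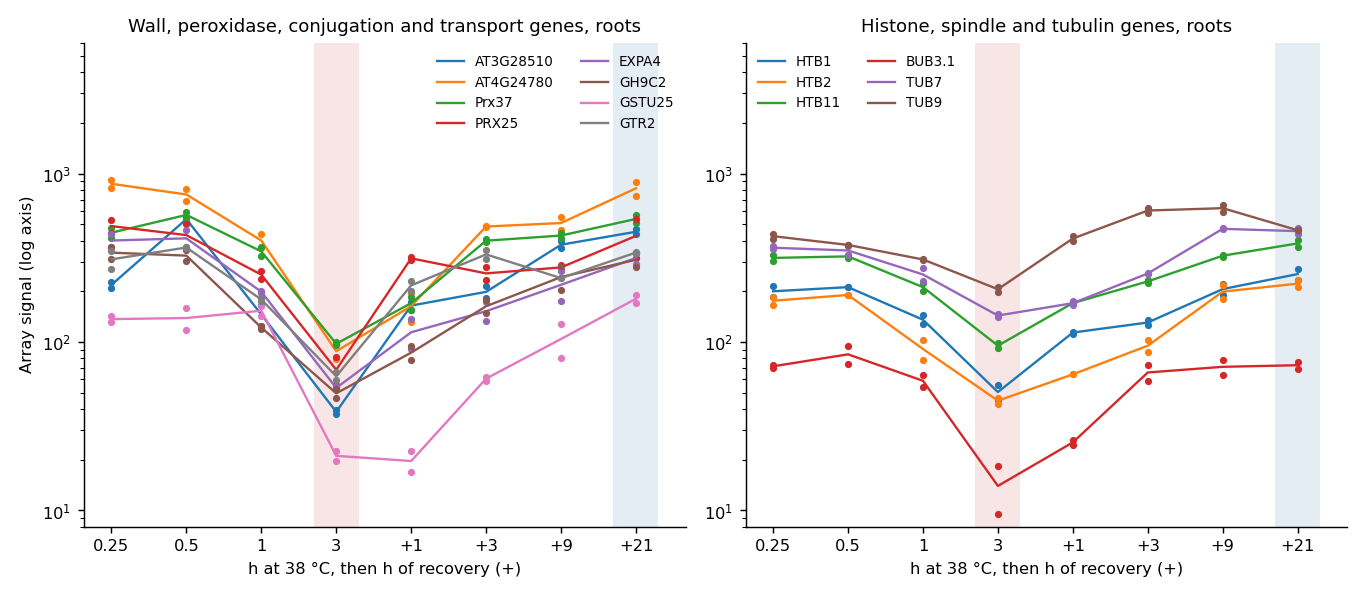
Signal (log axis) of 8 genes of wall, peroxidase, conjugation and transport or without a described role (left) and of 6 genes of histones, spindle and tubulins (right) in roots at 4 times of heat and 4 of recovery, with 2 arrays as points and their mean as a line. The bands mark the 2 times compared; of these genes all but GSTU25 had their lowest mean at 3 h of heat.

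Over the 1715 fallen probe sets the median level at 1 h of heat lay 44.7% of the way from the 21 h to the 3 h level, at 1 h of recovery 45.0% and at 9 h of recovery 8.61%. HTB1 had a mean of 136 at 1 h of heat, 50.5 at 3 h, 114 at 1 h of recovery and 206 at 9 h. EXPB2 was an exception, with a mean of 17.2 at 9 h of recovery and of 166 at 21 h, so its difference turned to 0.70 against 9 h of recovery.

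The counts of other small lists are read beside the 6.76% of all probe sets that rose and the 10.2% that fell, and nothing particular to them is drawn from them. Auxin (9 measured genes), RNA polymerases (11), glutaredoxins (6) and metal uptake (4) had 0 calls in limma's test, with medians of 0.08, −0.40, 0.03 and −0.07. Cytochrome P450 genes had 1 decrease among 13 and 0 increases (median −0.03), and genes of sugar transport and sucrose had 2 decreases among 18 and 0 increases (median 0.01). Heat shock factors, aquaporins, MYB factors and fatty acid desaturases were not analysed here.

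Risen nuclear genes were somewhat shorter in the annotation than the others. The median gene length was 2042 bases for 521 risen genes, 2226 for 896 fallen genes and 2346 for 7624 genes that were not called, each with 1 probe set per gene. Calls were also spread over signal levels. In the fifth of probe sets with the lowest mean signal 5.06% rose and 9.98% fell, and in the fifth with the highest 10.7% rose and 9.21% fell.

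Shoots of the same times allowed a test of whether the difference between the 2 times was unlike in roots and shoots. In 1037 probe sets (6.18%) the difference was more positive in roots than in shoots and in 1155 (6.88%) more negative, by the difference of the 2 differences in the same fit. Of these 698 and 531 lay in probe sets without a call in roots. Of the 1135 probe sets that rose in roots 54.9% also rose in shoots, where 7.13% of all probe sets rose. These were 52.1% of the shoot increases, and 5 of the 1135 fell there. For 309 of the 1135 the difference was more positive in roots and for 50 more negative. Of the 1715 that fell in roots 31.6% fell in shoots, against 9.15% of all probe sets, and these were 35.3% of the shoot decreases. For 574 of the 1715 the difference was more negative in roots and for 30 more positive. The called sets were picked on the same root arrays that enter the tissue difference, so these counts are fixed in part by that choice.

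Of the 8 small heat shock protein genes that rose in roots all rose in shoots too, and 6 had no tissue difference that passed. HSP17.4-CIII rose more in roots (tissue difference 1.51 ± 0.39, adjusted p = 0.00338), where it was at 38.8 on average in recovered tissue against 133 in shoots. This rested on the 21 h reference, since the difference was −0.11 against 9 h of recovery and 0.92 (adjusted p = 0.0685) against 0.25 h of heat. ROF2 (−1.35 ± 0.32), Hop3 (−1.34 ± 0.29) and HSP23.5 (−1.29 ± 0.35) rose less in roots. After quantile normalization these 3 differences no longer passed (−0.83, −0.65 and −0.49). HSP15.4, without a called change in roots, rose in shoots from 194 and 225 to 469 and 454 (tissue difference −1.34 ± 0.30), but this difference did not pass against 9 h of recovery (−0.64) or 0.25 h of heat (−0.60).

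Among the genes with the most root-biased increases, AT1G05340 read 1062 and 977 in heated roots against 106 and 67.2, and between 7.99 and 16.1 in shoots (tissue difference 3.25 ± 0.30). AT4G33660 read 2074 and 2132 in heated roots against 76.9 and 77.0, with 1167 and 1045 in heated shoots against 496 and 522 (3.49 ± 0.19). AT5G07330 (2.79 ± 0.33), RCA (2.68 ± 0.18), PUB26 (1.96 ± 0.30) and CML23 (1.11 ± 0.24) also rose more in roots. For AT5G07330 the tissue difference was 0.08 against 9 h of recovery. That of CML23 lost its call against 0.25 h of heat (0.38), with the smaller constant (0.89), and without root heat array 2 (0.95), root recovery array 1 (0.85), shoot heat array 1 (0.97) or shoot recovery array 1 (0.98). In shoots RCA read 5344 and 5300 after heat against 5192 and 4347.

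Some genes that fell in roots had little signal in shoots at either time. AT3G28510, AT5G66985 and AT5G22555 had signals of at most 2.42 on every shoot array of these times, and GSTU25 and TPS-CIN of at most 5.34. Their tissue differences were −3.19 ± 0.18, −3.05 ± 0.23, −2.66 ± 0.30, −2.50 ± 0.27 and −2.06 ± 0.22. AT5G57785 was different in that shoots carried it, at 312 and 290 after 3 h of heat and 253 and 218 at 21 h of recovery, while it fell in roots (tissue difference −3.27 ± 0.29). TUB7 was likewise present in shoots, at 187 and 178 against 199 and 210, and fell in roots (tissue difference −1.44 ± 0.13). Against 0.25 h of heat the tissue difference of TUB7 was −0.87 and not called.

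Mitochondrion-encoded genes rose in shoots as well, 13 of 15, where the median signal over their probe sets was 267 and 276 after 3 h of heat and 30.5 and 30.9 at 21 h of recovery. For nad1 (2.01 ± 0.20), cox2 (1.35 ± 0.25) and nad4L (1.06 ± 0.19) the increase was larger in roots, as it was for the plastid genes psaJ (1.32 ± 0.22) and rpl16 (1.32 ± 0.27) and for LHCB4.2 (1.997 ± 0.28). Against 9 h of recovery the tissue difference was 0.09 for cox2, 0.32 for nad4L and 0.97 for rpl16, and against 0.25 h of heat 0.62 for nad4L, 0.42 for psaJ and 0.48 for rpl16, none of them called. That of nad4L also fell under 1 without root heat array 2 (0.97), root recovery array 1 (0.98) or shoot recovery array 2 (0.89).

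Further large tissue differences came from shoots. ATSPS4F, a sucrose-phosphate synthase, AT2G27420 and TBL26, whose relatives add acetyl groups to the wall, had root signals of at most 16.9 on all 4 arrays and fell in shoots (tissue differences 4.01, 4.998 and 3.67). PORB, of chlorophyll synthesis, psbD, for a core protein of photosystem II, and the CC-type glutaredoxin gene AT4G15680 rose in shoots without a called change in roots (−2.70, −3.06 and −3.18). Against 9 h of recovery the tissue difference of PORB was −0.42 and not called.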

How the data were processed

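RNA of roots and shoots was measured on 32 ATH1 arrays, 2 for each of 16 groups of tissue and time. The authors deposited MAS5 signal values on a linear scale, per the submitters' processing notes. From the values, each array was scaled to a common trimmed mean (2% trimmed at each end). The version of MAS5 and the scanner files were not used here.

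Of 22810 probe sets 64 are controls. In the platform annotation 13513 of the rest name 1 gene, 503 name several and 8730 are unnamed here. The 13513 were matched to RefSeq gene records by gene ID (13436) or locus (48), and 29 kept the platform's name. Probe sets had to exceed the 40th percentile of the array in both replicates of some group, and 5964 did not. A constant of 10.7, taken from the deposited signal as a typical 25th percentile (the median of the 32 arrays' values), was added before taking log2. The test was limma's moderated test (version 3.58.1, R 4.3.3) with a mean-variance trend, on 1 mean per group over all 32 arrays (16 residual degrees of freedom). Benjamini-Hochberg adjustment ran over all 16782 probe sets. A call needed an adjusted p-value below 0.05 and a log2 difference of at least 1. The tissue difference was the root difference minus the shoot difference in the same fit. The fit was tested on simulated data.

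The comparison, the gene lists and the named members were chosen with earlier results of these data known. Named were the 15 largest increases and decreases with 1 gene and arrays that did not overlap, up to 5 members of each list with the largest difference in size, passed or not, any member of lists of up to 8, and the 8 largest tissue differences each way. Some were left out for length. Genes outside this rule are marked in the text. Gene lists were matched by symbol, so genes on unnamed probe sets are not in them. Other tools were Python 3.11.15, pandas 2.3.3, numpy 2.4.6 and matplotlib 3.10.9. Alternatives were another constant, filter, normalization, set of arrays, variance model, replicate block and reference time, and leaving out each array.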

Additional observations from a re-analysis of the deposited data

Results flagged for a closer look

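The test of the tissue difference (the root difference minus the shoot difference, log2) passed for 56 described probe sets, and for 2192 of the 16782 tested (13.1%). Some described genes were picked for the size of this difference, so the 56 says little about the described genes as a group. Groups of 2 arrays were too small for a test of outlying samples. No explanation of these differences was tested.

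The difference was more negative in roots for the largest root decreases AT5G57785 (−3.27), AT3G28510 (−3.19), AT5G66985 (−3.05), AT5G41280 (−2.72), AT5G22555 (−2.66), AT4G30650 (−1.90), AT3G02640 (−1.65), AT5G46230 (−1.46) and AT3G12870 (−1.03). Among genes of wall, peroxidases and peptides it was so for Prx37 (−3.0), EXPB2 (−2.16), PRX25 (−1.94), EXLA1 (−1.77), EXPA4 (−1.52), RALFL34 (−1.50) and XTH20 (−1.46). EXLA1 differs from the others in that it rose in both tissues, by 1.298 in roots and 3.07 in shoots. Its tissue difference no longer passed without a filter (adjusted p = 0.0574), after quantile normalization (0.0697 as adjusted p) or without any 1 of the 4 root arrays, shoot heat array 2 or shoot recovery array 2 (−1.83 to −1.59). That of AT3G12870 was no longer called without root heat array 1 (−0.99) or shoot recovery array 2 (−0.90).

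Conjugation, terpene and transport genes with a more negative root difference were GSTU25 (−2.50), UGT73D1 (−2.27), TPS-CIN (−2.06), UGT73B4 (−1.90), UGT85A2 (−1.72), GSTU22 (−1.36), GSTU26 (−1.26) and GTR2 (−1.10). TUB7 (−1.44), HTB1 (−1.16), BUBR1 (−1.16) and HIS1-3 (−1.04) were those of cell division and chromatin. Calls were lost by leaving out single arrays for GTR2 (−0.91 without shoot recovery array 1), GSTU26 (−0.997 without shoot heat array 2), BUBR1 (−0.98 without shoot recovery array 2) and HIS1-3 (−0.91 without root recovery array 1, −0.86 without root heat array 2 and −0.98 without shoot heat array 1). That of HIS1-3 was also lost with the larger (−0.99) or smaller (−0.91) constant, quantile normalization (−0.94) or the common 75th percentile (−0.95).

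Chaperone genes with a more negative root difference were Hop1 (−1.41), ROF2 (−1.35), HSP15.4 (−1.34), Hop3 (−1.34), HSP23.5 (−1.29) and ATERDJ3B (−1.11). Of these, ROF2, Hop3 and HSP23.5 rose in both tissues, HSP15.4 and ATERDJ3B passed in shoots and not in roots, and Hop1 passed in neither. AT4G15680 (−3.18), psbD (−3.06) and PORB (−2.70) rose in shoots without a called change in roots.

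Differences were more positive in roots for AT4G33660 (3.49), AT1G05340 (3.25), AT5G07330 (2.79), HSP17.4-CIII (1.51), CML23 (1.11) and AT1G71000 (1.08), and for PUB26 (1.96), PUB25 (1.38) and EXPA7 (1.197). The call of AT1G71000 was lost without root recovery array 2 (0.98). Genes of photosynthesis and of the organelles in this direction were RCA (2.68), nad1 (2.01), LHCB4.2 (1.997), cox2 (1.35), rpl16 (1.32), psaJ (1.32) and nad4L (1.06). AT2G27420 (4.998), ATSPS4F (4.01) and TBL26 (3.67) fell in shoots and were near the low end of the signal in roots.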

How the results depend on the processing

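Of 106 described probe sets called in roots, all 106 stayed called with the 75th percentile scaling, the smaller constant, no filter, no variance trend, root arrays only and the 4 arrays only. Quantile normalization lost 1 and the 4 times larger constant 11 (BUBR1, BZIP17, EXPA7, EXPA8, GTR1, HBT, PUB25, RALFL24, UGT71C3, UGT78D1 and XTH20). That constant left 789 increases and 749 decreases, all among those called before, and tissue differences fell to 595 positive and 505 negative. Quantile normalization gave 1347 increases and 1395 decreases. Leaving out 1 array gave 1129 to 1186 increases, 1629 to 1825 decreases, 1025 to 1101 positive and 1125 to 1222 negative tissue differences, and lost at most 2 of the 106 calls. Of 56 described tissue differences, the larger constant lost 10, the smaller 4, quantile normalization 5, the common 75th percentile 3, no filter 1 and leaving out 1 array at most 4.

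The tissue differences depended most on the reference time. Against 9 h of recovery 13 of the 56 were no longer called and 5 more reversed, and against 0.25 h of heat 17 were no longer called and 1 reversed. Among the 13 were PORB (−0.42), EXPA4 (−0.54), GSTU26 (−0.20), GTR2 (−0.47), BUBR1 (−0.76), ATERDJ3B (−0.52), RALFL34 (−0.79) and AT3G12870 (−0.06). Of the 106 root calls 3 were lost and 2 reversed against 9 h of recovery. Against 0.25 h of heat 10 were lost, among them those of the plastid genes accD, psaI, psaJ, rpl16 and psbH. Among those that reversed, against 9 h of recovery the root difference was 0.70 for EXPB2 and −0.50 for PDC2, and the tissue difference was −0.78 for AT1G71000, 0.17 for AT3G02640, 0.63 for AT4G30650, 0.21 for EXPB2 and −0.11 for HSP17.4-CIII. Against 0.25 h of heat the tissue difference of EXLA1 was 0.0122. The cause was not tested in any of these. With a replicate block 1135 rose and 1715 fell, and it changed no call of a described probe set. The labels do not say what arrays of the same replicate number share. The deviations of same-numbered root arrays of the 2 groups correlated at −0.00842. Over the 28 pairs of root groups this ran from −0.193 to 0.161. Shoot arrays were not part of this check, and it cannot show whether arrays were paired. Depth cannot be read from MAS5 signal, and values near the added constant have little precision.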
